A study of Mus musculus with 8 samples.

Results

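Radial glia and neural progenitor markers are a set of 10 genes, chosen by name from the 24421 genes of the deposited expression table: Nes, Vim, Fabp7, Slc1a3, Prom1, Sox1, Sox3, Pax6, Msi1 and Hes5. They were followed in mouse embryonic stem cells (mESCs) with and without Hira, which encodes a chaperone that places the histone variant H3.3 on chromatin outside DNA replication. The WT cells were the W9.5 line and the Hira-null cells were a single knockout clone, and both carried an HA-tagged H3.3. Undifferentiated cells were sequenced at day 0, and hanging drop cultures directed towards heart muscle were sequenced at day 15, by when LIF had been withdrawn and the drops had been plated. There were 2 biological samples in each of the 4 groups and 8 libraries in all. Because the Hira-null cells are 1 clone, the loss of Hira and other differences of that clone cannot be told apart.

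Radial glia are the elongated stem cells of the developing neural tube, which divide at its lumen and give rise to neurons and later to glia. They carry the intermediate filaments nestin and vimentin and, as they mature, the lipid-binding protein FABP7 and the glutamate transporter SLC1A3. Factors of the SOXB1 group (Sox1, Sox3) and PAX6 mark neural progenitors, MSI1 binds messenger RNA in them, and HES5 is switched on by NOTCH signalling and holds back neuronal differentiation. Several of these genes are not restricted to the neural lineage. Vim is abundant in mesenchyme, and Prom1 is found in many epithelia.

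RefSeq promoter windows of 250 bases before to 50 bases after a start site were found for 8 of the 10 genes, with Prom1 and Pax6 having more than 1 window, while Sox3 and Msi1 had none. All 10 windows matched the NCBIM37 (mm9) genome exactly, at 1 place each. They were searched on both strands for TGGGAA, the core of the site of RBPJ, the DNA-binding partner of NOTCH, for AACAAT, a SOX core, for ATGCAAAT, the POU octamer, and for CACGNG, a HES-type site. Of 32851 windows of the same length across the genome, 25.6% held the RBPJ core, 10.7% the SOX core, 1.74% the octamer and 27.5% the HES-type letters. The upstream sequences of Hes5, the NOTCH target of the set, and Fabp7, the gene with the largest genotype difference at day 15, are shown because each held the RBPJ core. They run 5′ to 3′ on the strand of the gene, with RBPJ core letters of either strand in capitals. The Hes5 stretch is chr4:154334782-154335031 on the plus strand and ends at the base before the start site, and the Fabp7 stretch is chr10:57504479-57504686 on the plus strand and ends where its first annotated exon begins.
Hes5: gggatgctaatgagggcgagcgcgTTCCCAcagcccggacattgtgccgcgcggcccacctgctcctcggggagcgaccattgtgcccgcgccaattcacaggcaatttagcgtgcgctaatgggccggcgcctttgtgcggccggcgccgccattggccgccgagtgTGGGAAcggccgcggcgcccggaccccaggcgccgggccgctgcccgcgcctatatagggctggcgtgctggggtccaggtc
Fabp7: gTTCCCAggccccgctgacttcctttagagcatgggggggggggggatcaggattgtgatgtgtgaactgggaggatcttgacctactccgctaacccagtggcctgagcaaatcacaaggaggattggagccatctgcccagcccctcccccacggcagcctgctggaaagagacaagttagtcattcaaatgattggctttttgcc

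Counted from the start site, the RBPJ core of Hes5 began at -226 and -82, and that of Fabp7 at -249. A Prom1 window held the RBPJ core at -116 and the HES-type letters at -98. The Sox1 window held the octamer at 19 and the RBPJ core at 42, both after the start site. The windows of Nes, Vim, Slc1a3 and Pax6 and the other Prom1 window held none of the 4 motifs. A match of letters is a description of the sequence and no measure of binding.

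The unit of the deposited values is FPKM, fragments counted on a gene relative to its length and to the depth of the library, so levels can be compared between genes. The step between low values gave back whole fragments, within 0.02 of a fragment, for all 19134 genes above 0, and the libraries held 6897009 to 11088583 such fragments. Groups were compared as log2(FPKM + 1) with limma, leaving out genes that did not reach FPKM 1 in 2 or more libraries. This kept 14337 genes, and a gene was called at an adjusted p of 0.05 or less (Benjamini-Hochberg). For genes at low FPKM this scale gives a smaller change than the ratio of FPKM. Exons of Hira, the targeted gene, overlap those of Gm15797, a processed transcript on the same strand, so Hira fragments are uncertain. Hira read 27.3 and 28.5 FPKM in the WT libraries at day 0 and 12.4 and 11.4 FPKM in the Hira-null libraries. At day 15 it read 15.8 and 15.5 FPKM in WT and 16.7 and 19.8 FPKM in the libraries labelled Hira-null, so that the label was not matched by a lower level (log2 difference 0.20, adjusted p = 0.167, limma). With replicate 1 of these labelled libraries left out, the difference became 0.32 and passed the test (adjusted p = 0.0497, limma). Directions between genotypes at day 15 therefore refer to the label, and the cause of this Hira level was not tested. The day 15 label of cardiomyocytes was checked against 16 cardiomyocyte genes, of which 15 rose from day 0 to day 15 in WT and 13 rose with 1 falling in the cultures labelled Hira-null. Over all genes tested 36.1% rose in WT, and 37.5% rose and 36.4% fell in the cultures labelled Hira-null. The summed level of the 16 genes went from 39.6 to 48.7 FPKM over the 4 day 0 libraries to 301 and 318 FPKM in WT and to 212 and 213 FPKM in the libraries labelled Hira-null. At day 15, 16 mesenchyme genes summed to 2741 and 3022 FPKM in WT, and the neural genes described here were present as well, so these were mixed cultures. In such cultures fewer cells of a type and less RNA per cell cannot be told apart.

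At day 15, 7 of the 10 radial glia and neural progenitor genes were higher in the libraries labelled Hira-null than in WT and none was lower. The 7 were Fabp7, Slc1a3, Prom1, Nes, Msi1, Vim and Sox1. Over all genes tested 18.6% were called higher and 18.8% lower in this comparison. The libraries of both groups did not overlap for 7 of the 10 genes, the same 7. This was the share over all genes, 70%. The median log2 difference of the 10 genes was 0.79, against 0.01 for all genes tested, and all 10 differences were above 0. At day 0 the picture was another one. Msi1, Sox1 and Prom1 were higher in Hira-null, Nes was lower, and 6 were not past the test, where 20.8% of all genes were called higher and 19.4% lower. The groups did not overlap at day 0 for 8 of the 10, against 68.6% of all genes. Between the days, 9 of the 10 genes rose and none fell in WT, where 36.1% of all genes rose and 33.4% fell. In the cultures labelled Hira-null 9 rose and none fell, where 37.5% of all genes rose and 36.4% fell. Sox3 was the exception in both. The median log2 change of the 10 genes was 1.94 in WT and 2.63 in the cultures labelled Hira-null, against 0.03 and 0.01 over all genes. All 10 passed the filter on low values, but Fabp7, Hes5 and Pax6 passed it through the day 15 libraries alone. Their rises between the days were thus set by the filter, and they are part of the counts and medians of the day comparisons. The rises that the filter did not set were those of Nes, Vim, Slc1a3, Prom1, Sox1 and Msi1.

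**Figure D1:**
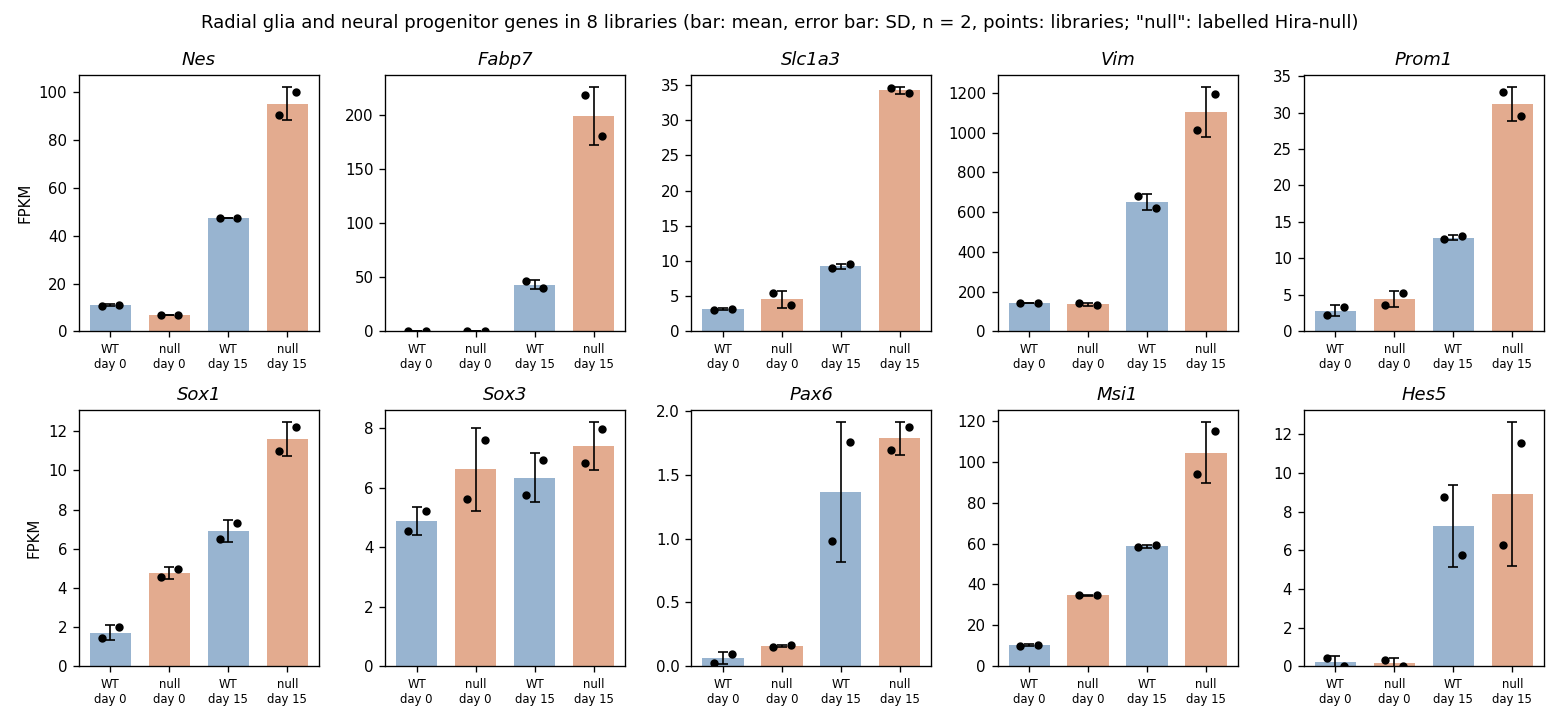
FPKM (vertical axes, each with its own scale) of the 10 radial glia and neural progenitor genes by genotype label and day (horizontal axes). The bars show the mean with its SD (n = 2), each point is a library, and "null" stands for libraries labelled Hira-null. Fabp7 is at 0 in all day 0 libraries, Msi1 is higher in Hira-null at both days, and the groups overlap at day 15 for Sox3, Pax6 and Hes5.

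Nes encodes nestin, the intermediate filament protein that gave neural stem cells their best-known marker, and lies at chr3:87775000-87784373 on the plus strand. In WT it read 10.8 and 11.2 FPKM at day 0 and 47.4 and 47.5 FPKM at day 15. In the cells labelled Hira-null it read 6.77 and 6.80 FPKM at day 0 and 90.5 and 100.2 FPKM at day 15. The Hira-null libraries thus lay below WT at day 0 and above WT at day 15, with no overlap at either day. Nes was lower in Hira-null at day 0 by a log2 difference of -0.63 (SE 0.083, adjusted p = 5.82e-04, limma). At day 15 it was 2.01 times as high by mean FPKM (log2 difference 0.99, SE 0.086, adjusted p = 9.46e-05, limma). The direction therefore differed between the days, and the difference between both log2 differences was 1.61 (SE 0.119, adjusted p = 9.01e-05, limma). The rise from day 0 to day 15 was 4.31 times in WT and 14.1 times in the cultures labelled Hira-null.

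Vim encodes vimentin, the filament partner of nestin in radial glia and the main filament of mesenchymal cells, and lies at chr2:13495554-13504453 on the plus strand. It was the most abundant of the 10 genes in each group. At day 0 the WT libraries read 144 and 142 FPKM and the Hira-null libraries 142 and 131 FPKM, and the difference was not past the test (log2 difference -0.07, adjusted p = 0.553, limma). At day 15 the WT libraries read 678 and 622 FPKM and the libraries labelled Hira-null 1014 and 1192 FPKM. The groups did not overlap at day 15, and the ratio of mean FPKM was 1.70 (log2 difference 0.76, SE 0.087, adjusted p = 3.30e-04, limma). The genotype difference was larger at day 15 than at day 0 by 0.83 on the log2 scale (adjusted p = 0.00151, limma). Of 16 mesenchyme genes, which mark other vimentin-rich cells, 12 were lower in these libraries at day 15 and none was higher. The shares over all genes tested were 18.8% lower and 18.6% higher. Twist1, Fn1 and Zeb1 of that list had differences above 0 that did not pass. Which cells held the Vim RNA was not tested.

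Fabp7, also known as brain lipid-binding protein, carries fatty acids in radial glia and lies at chr10:57504687-57508256 on the plus strand. No fragment was assigned to it in any of the 4 day 0 libraries. At day 15 the WT libraries read 46.2 and 40.1 FPKM, from 332 and 358 fragments. The libraries labelled Hira-null read 218 and 180.2 FPKM, from 1480 and 1307 fragments. Fabp7 thus had the largest genotype difference of the 10 genes at day 15, 4.61 times by mean FPKM (log2 difference 2.18, SE 0.134, adjusted p = 2.60e-05, limma). The fit pools the spread with day 0 libraries that are all at 0, and in a fit of the day 15 libraries alone the difference was the same with an adjusted p of 1.96e-04 (limma). Set against a floor of 3 fragments per day 0 library, which covers counting error only, WT cultures at day 15 held at least 80.7-fold higher Fabp7 than WT cells at day 0, and for the cells labelled Hira-null it was at least 347-fold higher. Its mean level exceeded that of 89.5% of tested genes in WT at day 15 and of 98.7% in the libraries labelled Hira-null, and it moved from the 4th to the 2nd most abundant of the 10 genes.

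Slc1a3 encodes GLAST, the glial transporter that clears glutamate, and lies at chr15:8584124-8660764 on the minus strand. At day 0 it read 3.04 and 3.24 FPKM in WT and 5.43 and 3.68 FPKM in Hira-null, where the first library stood above the other. This difference was not past the test (log2 difference 0.41, adjusted p = 0.0625, limma), and it moved with the Hira-null library left out, to 0.18, not past the test, without replicate 1 and to 0.64 (adjusted p = 0.0148, limma) without replicate 2. The day 15 values were 8.93 and 9.52 FPKM in WT and 34.6 and 33.9 FPKM in the libraries labelled Hira-null. The day 15 libraries formed separate pairs with little spread within each, and the ratio of means was 3.71 (log2 difference 1.79, SE 0.158, adjusted p = 1.03e-04, limma). The genotype difference was larger at day 15 than at day 0 by 1.38 (adjusted p = 0.00221, limma).

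Prom1 encodes prominin, a membrane protein of the apical surface of neural progenitors and of other epithelia. It lies at chr5:44384864-44493271 on the minus strand and shares exon sequence with Gm16401, a gene model on the other strand, so its fragments are uncertain, since no source used here says whether strand entered the counting. At day 0 it read 2.28 and 3.34 FPKM in WT and 3.65 and 5.24 FPKM in Hira-null. These groups did not overlap but lay close together, and the call at day 0 (log2 difference 0.51, adjusted p = 0.0468, limma) was lost when WT replicate 1 (0.31, adjusted p = 0.227, limma) or Hira-null replicate 2 (0.30, adjusted p = 0.288, limma) was left out. It was also lost without any 1 of the day 15 libraries, at adjusted p from 0.0717 to 0.083 (limma). At day 15 Prom1 read 12.6 and 13.1 FPKM in WT and 32.8 and 29.6 FPKM in the libraries labelled Hira-null. That difference was 2.43 times by mean FPKM (log2 difference 1.21, SE 0.183, adjusted p = 0.00122, limma). The change in the genotype difference between the days, 0.70, was not past the test (adjusted p = 0.0606, limma), but passed without WT day 0 replicate 1 (0.90, adjusted p = 0.0268) or without Hira-null day 0 replicate 2 (0.91, adjusted p = 0.0309).

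Sox1 encodes a SOXB1 factor that is among the earliest markers of neural fate. The annotation used here held no entry for it, and its RefSeq promoter window matched chr8:12395269-12395568 of NCBIM37. It read 1.45 and 1.99 FPKM in WT and 4.54 and 4.99 FPKM in Hira-null at day 0. At day 15 it read 6.49 and 7.29 FPKM in WT and 11.0 and 12.2 FPKM in the libraries labelled Hira-null. Sox1 was thus higher in the cells labelled Hira-null on both days without overlap, with a ratio of means of 2.77 at day 0 (log2 difference 1.09, adjusted p = 6.39e-04, limma) and 1.69 at day 15 (0.68, adjusted p = 0.00849, limma). The day 15 call rested on both WT libraries, since it was lost without WT replicate 1 (0.60, adjusted p = 0.104, limma) and without WT replicate 2 (0.75, adjusted p = 0.0598, limma). The day 15 and day 0 differences were not shown to differ (-0.41, adjusted p = 0.163, limma).

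Sox3, the X-linked SOXB1 factor, lies at chrX:58144545-58146605 on the minus strand and varied least of the 10 genes. Its 8 libraries ran from 4.54 to 7.99 FPKM. WT read 4.54 and 5.22 FPKM at day 0 and 5.76 and 6.94 FPKM at day 15, while the cells labelled Hira-null read 5.64 and 7.61 FPKM and then 6.85 and 7.99 FPKM. No comparison of Sox3 passed the test. At day 15 the groups overlapped, and the 95% interval of the log2 difference, -0.19 to 0.59, holds differences of either sign. Its change between the days was 0.32 in WT (adjusted p = 0.12, limma) and 0.15 in the cultures labelled Hira-null (adjusted p = 0.435, limma). With each library scaled to its own fragment total, the WT change became 0.43 and passed (adjusted p = 0.049, limma), on a scaling that moves the median of all genes in that comparison to 0.14.

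Pax6 encodes a paired and homeodomain factor of forebrain, spinal cord and eye progenitors. It lies at chr2:105509053-105543317 on the plus strand, and its exons overlap those of Elp4 on the other strand, so its fragments are uncertain. Pax6 was at the edge of detection at day 0, with 1 and 4 fragments in WT and 5 and 7 in Hira-null, or 0.0285, 0.0994, 0.153 and 0.167 FPKM. At day 15 it read 0.981 and 1.76 FPKM in WT, from 44 and 98 fragments, and 1.70 and 1.88 FPKM in the libraries labelled Hira-null, from 72 and 85 fragments. Pax6 was the least abundant of the 10 genes in both groups at day 15. It rose between the days in WT (log2 difference 1.14, adjusted p = 6.58e-04, limma) and in the cultures labelled Hira-null (1.26, adjusted p = 2.93e-04, limma). These rises were set by the filter on low values, which Pax6 passed through the day 15 libraries alone. The genotypes overlapped at day 15, and the interval of their log2 difference was -0.19 to 0.70.

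Msi1 encodes Musashi-1, which binds messenger RNA in neural progenitors, and lies at chr5:115879608-115905707 on the plus strand. It read 9.90 and 10.6 FPKM in WT and 34.6 and 35.0 FPKM in Hira-null at day 0. By day 15 these had become 58.2 and 59.1 FPKM in WT and 93.9 and 115 FPKM in the libraries labelled Hira-null. Msi1 had the largest genotype difference of the 10 genes at day 0, 3.40 times by mean FPKM (log2 difference 1.67, SE 0.098, adjusted p = 1.56e-05, limma). The ratio was 1.78 at day 15 (0.82, SE 0.101, adjusted p = 4.57e-04, limma). The genotype difference was therefore smaller at day 15, by -0.85 on the log2 scale (SE 0.140, adjusted p = 0.00250, limma), the opposite of Nes, Fabp7, Slc1a3 and Vim. Its rise between the days was 5.72 times in WT and 3.0 times in the cultures labelled Hira-null. Of the 31-base stretches of its transcripts, 0.51% also occurred in other coding genes, mostly its paralogue Msi2, and for the other 8 genes that could be checked this share was 0.41% or less.

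Hes5 encodes a repressor that NOTCH signalling switches on in neural progenitors, and the plus-strand gene lies at chr4:154335032-154336480, directly after the sequence printed above. Its exons overlap a processed transcript, RP24-89N4.5, on the other strand. At day 0 there were 4 and 0 fragments in WT and 3 and 0 in Hira-null, or 0.427, 0, 0.343 and 0 FPKM. At day 15 it read 8.76 and 5.77 FPKM in WT, from 105 and 86 fragments, and 6.26 and 11.6 FPKM in the libraries labelled Hira-null, from 71 and 140 fragments. Hes5 rose between the days in WT (log2 difference 2.77, adjusted p = 5.27e-05, limma) and in the cultures labelled Hira-null (3.04, adjusted p = 2.24e-05, limma). It passed the filter on low values through the day 15 libraries alone, so these rises were set by the filter. Its replicates at day 15 differed by 1.52 times in WT and by 1.85 times in the libraries labelled Hira-null, more than those of any other of the 10 genes in the latter group. The genotypes overlapped, and the interval of the log2 difference was -0.48 to 0.95.

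**Figure D2:**
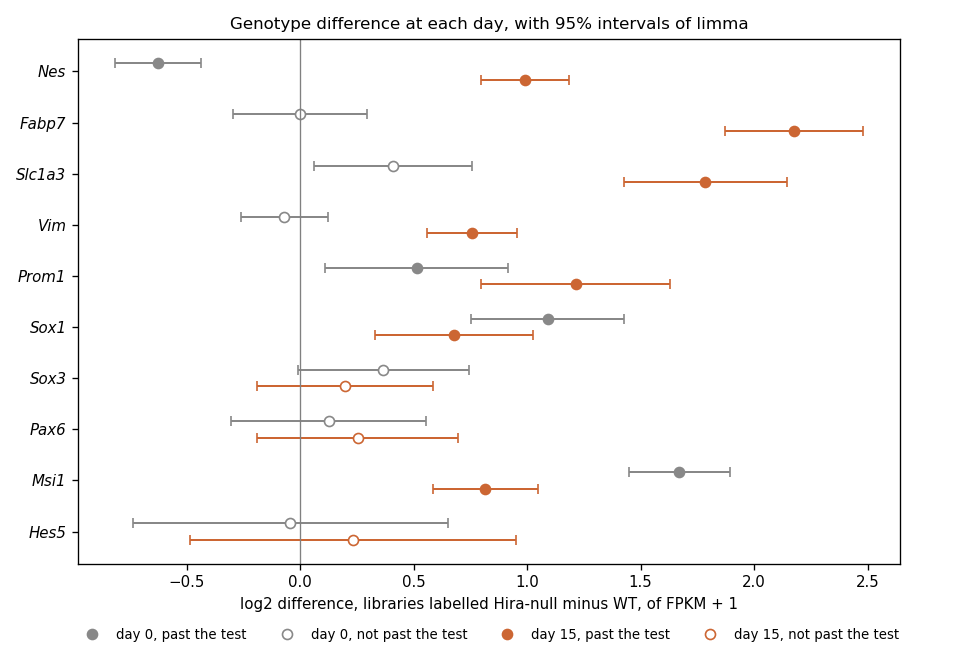
Log2 difference in FPKM + 1 between libraries labelled Hira-null and WT (horizontal axis) for the 10 genes (vertical axis) at day 0 (grey) and day 15 (orange). Points are limma estimates with 95% intervals, filled where the adjusted p was 0.05 or less. Nes lies at -0.63 at day 0 and 0.99 at day 15, and Msi1 and Sox1 lie further right at day 0 than at day 15.

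The genotype difference itself changed with the day for 5 of the 10 genes, against 35.2% of all genes tested (17.5% upwards and 17.7% downwards). It was more positive at day 15 for Nes, Fabp7, Slc1a3 and Vim, by 0.83 to 2.18 on the log2 scale, and less positive for Msi1. The top of this range is Fabp7, which was at 0 in all day 0 libraries. Its change, counted among the 5, is therefore its day 15 difference restated. The 4 genes that gained were the filament proteins, the lipid carrier and the glutamate transporter. For Prom1, Sox1, Sox3, Pax6 and Hes5 the change in the difference was not past the test. Hira itself moved by 1.37 in the same comparison (adjusted p = 4.44e-04, limma), and the part of this in the values of the 10 genes was not tested.

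**Figure D3:**
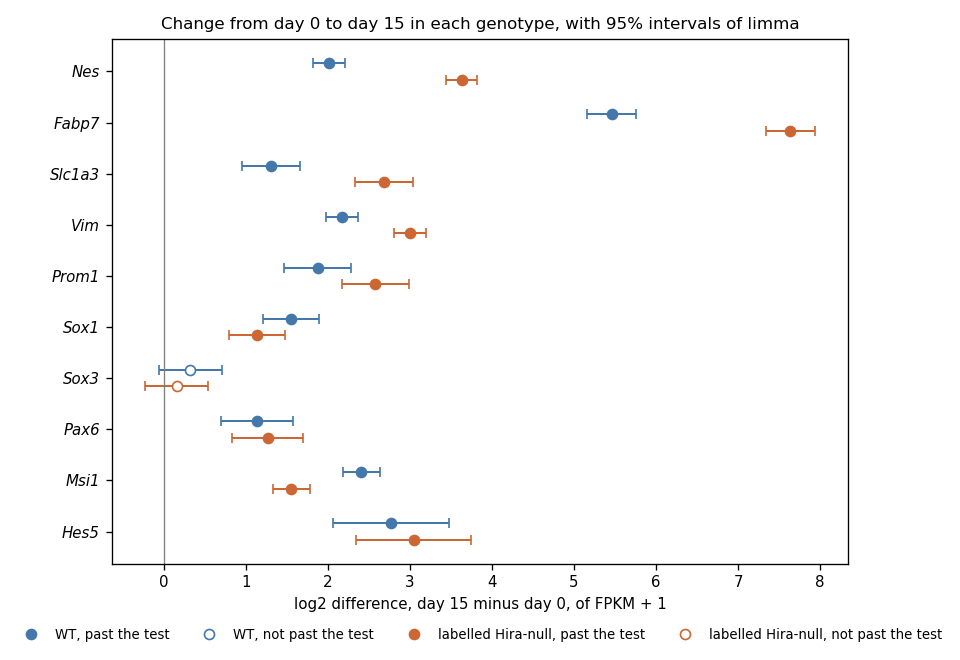
Log2 change in FPKM + 1 from day 0 to day 15 (horizontal axis) for the 10 genes (vertical axis) in WT (blue) and in cells labelled Hira-null (orange). Points are limma estimates with 95% intervals, filled where the adjusted p was 0.05 or less. Fabp7, at 0 in all day 0 libraries, changed by 5.46 and 7.64 on this scale, and Sox3 is the gene whose intervals include 0. The rises of Fabp7, Hes5 and Pax6 were set by the filter on low values.

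The order of the levels, per length in FPKM, also differed between groups. In WT at day 0 it ran Vim, Nes, Msi1, Sox3, Slc1a3, Prom1 and Sox1, with Hes5, Pax6 and Fabp7 each below 0.5 FPKM in every library. Among these, Slc1a3 and Prom1 overlapped, as did Hes5 and Pax6. In Hira-null at day 0, Msi1 stood 2nd and Nes 3rd, Nes overlapped Sox3, and Sox1, Slc1a3 and Prom1 could not be ordered. In WT at day 15 the order was Vim, Msi1, Nes, Fabp7, Prom1 and Slc1a3, followed by Hes5, Sox1 and Sox3, whose libraries overlapped, and then Pax6. In the libraries labelled Hira-null at day 15 it was Vim, Fabp7, Msi1, Nes, Slc1a3, Prom1, Sox1, Hes5, Sox3 and Pax6. There Msi1 overlapped Nes, and Hes5 overlapped Sox1 and Sox3.

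Of a list of 30 other neural stem cell and radial glia genes, 20 were higher at day 15 in the libraries labelled Hira-null, 2 (Gli3 and Gas1) were lower and 8 did not pass, with a median log2 difference of 0.65. Over all genes tested 18.6% were called higher and 18.8% lower. Among the higher genes, Nr2e1 and Emx2 would not have passed the filter on low values without the libraries labelled Hira-null, which favoured this direction. The count of higher genes fell to 15 without WT day 15 replicate 1 and to 16 without replicate 2. The 3 with the largest differences were Zic1, a zinc finger factor of the dorsal neural tube, at 4.87 ± 0.888 FPKM in WT and 34.4 ± 3.73 FPKM in the libraries labelled Hira-null (mean ± SD, n = 2; log2 difference 2.60, adjusted p = 2.82e-05, limma), Ptprz1 and Rfx4. Ptprz1, a receptor phosphatase of radial glia, went from 2.76 ± 0.439 to 13.5 ± 0.308 FPKM (1.96, adjusted p = 8.16e-05, limma). Rfx4, a factor of the neural tube, went from 5.37 ± 0.218 to 19.9 ± 1.31 FPKM (1.71, adjusted p = 4.61e-04, limma). At day 0, 5 of the list were higher and 6 lower, with a median of 0.02, near the shares of all genes, 20.8% higher and 19.4% lower. From day 0 to day 15, 22 of the 30 rose and 5 fell in WT, where 36.1% of all genes rose and 33.4% fell. In the cultures labelled Hira-null 24 rose and 4 fell, where 37.5% of all genes rose and 36.4% fell.

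The NOTCH pathway, to which Hes5 responds, did not move as a block at day 15, where 18.6% of all genes tested were called higher and 18.8% lower. Of 22 receptors, ligands, modulators and HES and HEY factors, 20 were tested, 7 were higher in the libraries labelled Hira-null, 3 were lower, and the median log2 difference was 0.08. These counts were 3 higher and 2 lower without WT day 15 replicate 1, and the same without replicate 2, and 4 higher and 3 lower without replicate 2 of the libraries labelled Hira-null. The largest differences were those of Heyl, an effector known from vessels and muscle, at 4.59 ± 0.293 FPKM in WT and 0.652 ± 0.291 FPKM in the libraries labelled Hira-null (n = 2; -1.77, adjusted p = 1.82e-04, limma), Hes6 and Dll4. Hes6, a HES family member that promotes neuronal differentiation, went from 15.1 ± 0.436 to 36 ± 10.3 FPKM (1.17, adjusted p = 0.00104, limma). Dll4, a ligand of vessels, went from 1.75 ± 0.00178 to 0.289 ± 0.236 FPKM (-1.11, adjusted p = 0.00180, limma). Heyl and Dll4 passed the filter on low values through WT at day 15 alone, which favoured a lower call. At day 0, 9 of the 20 were higher in Hira-null and 2 were lower, where 20.8% of all genes were called higher and 19.4% lower.

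Some marker genes of other cell types also differed at day 15, higher or lower by list, and their part in the results was not tested. Over all genes tested 18.6% were called higher and 18.8% lower in this comparison. Of 18 neuron genes, 16 were higher in the libraries labelled Hira-null, none was lower and the median log2 difference was 1.02, with 12 to 14 higher when 1 of the day 15 libraries was left out. Their summed level was 230.4 and 234 FPKM in WT at day 15 and 469 and 494 FPKM in the libraries labelled Hira-null. The highest of them by mean over the 8 libraries, Stmn2, which acts on microtubules in growing axons, went from 24.5 ± 4.08 to 64.2 ± 0.0142 FPKM (n = 2; 1.37, adjusted p = 5.26e-05, limma). It was not restricted to differentiated cultures, since it stood at 146 ± 1.16 FPKM in WT at day 0, and at day 15 Tubb3 stood above it in every library. Rbfox3, a neuron gene called higher, passed the filter on low values through the libraries labelled Hira-null at day 15 alone. Of 14 astrocyte and oligodendrocyte genes, 10 were tested, 4 were higher, 3 were lower, and S100b and Mog were at 0 in all 4 day 15 libraries. The 4 higher genes were Slc1a2, Olig1, Olig2 and Aqp4, and the 3 lower genes were Sox10, Cspg4 and Cnp. Without the day 15 libraries labelled Hira-null, Olig2 and Aqp4 would not have passed the filter on low values. Sox10 and Cspg4 would not have passed it without those of WT at day 15, so the filter favoured these directions. Cnp, a myelin enzyme and the highest of the list by mean over the 8 libraries, went from 8.52 ± 1.29 to 4.04 ± 0.384 FPKM (-0.91, adjusted p = 0.00123, limma).

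In the libraries labelled Hira-null at day 15, 12 of 16 mesenchyme genes (median -0.99), 6 of 11 epithelial genes (-0.44), 6 of 7 tested skeletal muscle genes (-1.57) and 7 of 9 tested endothelial genes (-1.37) were lower, and no tested gene of these 4 lists was called higher. Over all genes tested 18.8% were called lower and 18.6% higher. With no filter on low values, 12 of 13 skeletal genes were tested, with 8 lower and 1 higher, and in the fit of the day 15 libraries alone 1 mesenchyme gene was higher. The mesenchyme genes summed to 1347 and 1565 FPKM there, against 2741 and 3022 FPKM in WT. Col1a1, the fibrillar collagen and the highest of them by the same mean, went from 1054 ± 119 to 289.9 ± 65.0 FPKM (n = 2; -1.87, adjusted p = 7.56e-05, limma). Krt18, an epithelial keratin, went from 111 ± 4.50 to 72.0 ± 7.93 FPKM (-0.62, adjusted p = 5.93e-04, limma), and Pecam1, an endothelial adhesion protein, from 15.5 ± 0.673 to 4.16 ± 0.404 FPKM (-1.68, adjusted p = 1.60e-05, limma). Acta1, skeletal alpha-actin, did not pass (0.01, adjusted p = 0.972, limma), while the skeletal genes Myog and Chrna1 were at 0 in both libraries labelled Hira-null and above 0 in both WT libraries. Of the genes called lower, the skeletal Myod1, Myog and Tnni2 and the endothelial Tie1 passed the filter on low values through WT at day 15 alone, which favoured this direction. Myf6 and Ckm were at 0 in all 4 day 15 libraries. Of 16 cardiomyocyte genes, 5 were lower and 1 was higher, and with either WT day 15 library left out, 2 were lower and none was higher. Myl7, the atrial myosin light chain, went from 66.9 ± 2.80 to 12.1 ± 0.307 FPKM (-2.37, adjusted p = 7.68e-06, limma). Pax6 is also an eye gene, and of 10 eye field and retina genes 5 were tested, with a median log2 difference of -0.20 at day 15. Mitf, the highest of them by the same mean, stood at -0.20 as well (adjusted p = 0.531, limma).

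**Figure D4:**
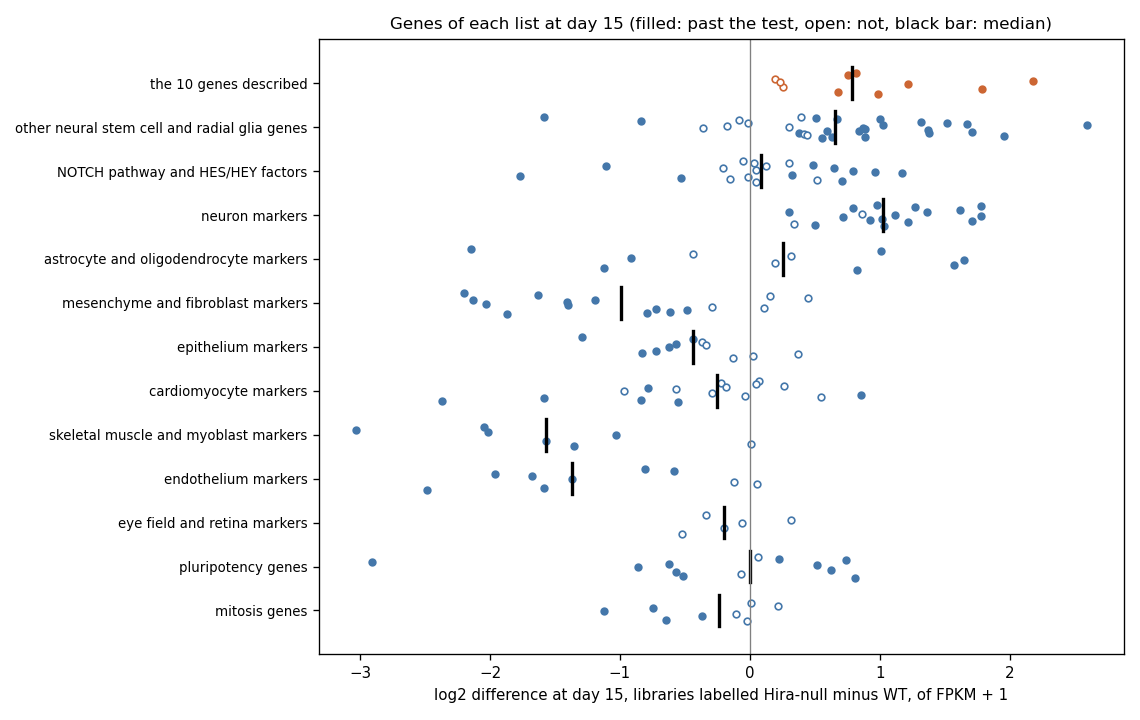
Log2 difference in FPKM + 1 at day 15 between libraries labelled Hira-null and WT (horizontal axis) for the tested genes of each list (vertical axis). Each point is a gene, filled where the adjusted p was 0.05 or less, and black bars are list medians. The medians are 0.79 for the 10 genes described, 0.65 for other neural stem cell genes and 1.02 for neuron genes, and -0.99 for mesenchyme genes.

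Genes with the profile most like that of each of the 10 were found by the root mean square difference of log2(FPKM + 1), each gene centred on its own mean over the 8 libraries. The nearest gene to Nes was Nrp2, a semaphorin receptor of axons and vessels, at a difference of 0.0957, and to Vim it was the protocadherin Pcdh17 at 0.0892. Slc1a3 was nearest to Syt1, the calcium sensor of synaptic vesicles (0.107), and Prom1 to Srgap3 (0.126). Sox1 was nearest to H2-Ke6 (0.0887), Sox3 to Hrc (0.0660), Pax6 to Samd3 (0.0795), Msi1 to Camk2n1 (0.181) and Hes5 to Zfp362 (0.208). Fabp7 had no close neighbour, since the nearest gene, Shh, the ligand secreted by the floor plate of the neural tube, differed by 0.577. Shh read 0 FPKM in all day 0 libraries, 19.2 and 17.6 FPKM in WT at day 15 and 89.8 and 95.8 FPKM in the libraries labelled Hira-null. Among the 10 genes themselves, Nes and Vim were nearest to each other, at 0.247, with 29 other genes nearer to Nes and 109 nearer to Vim. Slc1a3 and Prom1 were nearest to each other at 0.335, with 141 and 145 genes nearer. Sox3 had 6812 genes nearer to it than any of the other 9.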

How the data were processed

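Messenger RNA of 8 libraries was sequenced with a stranded kit and read pairs. Per the labels, the authors aligned reads with Bowtie 0.12.2 to mm9 and used DESeq2 1.6.3. The FPKM values deposited by the authors for 24421 genes were used. 2 deposited tables of the authors' own comparisons (means, log2 fold changes, p-values) were not used. How the authors scaled libraries and whether counting used strand are not given in the sources used here. 27 symbols had become dates. Values were fitted with limma 3.58.1 (R 4.3.3) as log2(FPKM + 1), with 4 group means, a weight per day (1.03 and 0.968), an empirical Bayes trend and 4 residual and 4.70 prior degrees of freedom, on a script tested on simulated data. P-values measure a spread between samples that is pooled over the groups fitted, with 2 samples a group, and drawn towards a trend over all genes. They do not measure the spread of the 2 groups compared alone. The 10 genes, the 12 lists, compiled from general knowledge, and the tests were chosen with earlier results of these data known. The text names the 10 genes, Hira, the nearest gene to each of the 10, the 3 genes of largest day 15 difference in the neural stem cell and NOTCH lists and the gene of highest mean FPKM over the 8 libraries in every other list. Other list genes were named after their values were seen. Alternatives were a pseudocount of 0.1, other filters and scalings, a replicate block, no weights, single-day fits and leaving out each library. Fragments may not be independent molecules.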

Additional observations from a re-analysis of the deposited data

Results flagged for a closer look

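The genotype difference (libraries labelled Hira-null minus WT, log2 of FPKM + 1) at day 15 differed from that at day 0 by the interaction test of limma for 5 of the 10 genes and for Hira. The change was 1.615 for Nes, which was lower in Hira-null at day 0 and higher at day 15 in the libraries so labelled. It was 1.377 for Slc1a3 and 0.8285 for Vim. For Fabp7, whose day 0 libraries were all at 0, it was 2.177, which restates the day 15 difference. For Msi1 it was -0.8548, with a genotype difference of the same sign on both days. For Hira, the targeted gene, it was 1.37. Hira was lower in Hira-null at day 0 and not in the libraries so labelled at day 15, so every genotype direction given for day 15 refers to the label. Its exons overlap those of Gm15797 on the same strand, so its fragments are uncertain, and the cause of its day 15 level was not tested. All 6 changes had an adjusted p of 0.05 or less, where 35.2% of all genes tested did.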

How the results depend on the processing

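The numbers of genes called among the 10 stayed within 1.5 times of those given under each alternative. Leaving out 1 library, where the lone library of a group is taken to vary like the other groups, gave 3 to 4 called genes for the genotypes at day 0, 6 to 7 at day 15, 9 between the days in either genotype and 5 to 6 for the change in the genotype difference. A filter on mean FPKM removed Pax6. For single genes, 838 values kept direction and side of the threshold, 11 lost the call, 6 gained it and 9 changed sign without passing the test in either setting. These 9 came from 6 values, whose ranges without 1 library were -0.30 to 0.21 for Hes5 at day 0, -0.16 to 0.63 for Hes5 at day 15, -0.035 to 0.34 for the Sox3 change between the days in cells labelled Hira-null, and, for the change in the genotype difference, -0.36 to 0.019 for Sox3, -0.11 to 0.37 for Pax6 and -0.12 to 0.67 for Hes5. Hes5 at day 0 was 0.21 without WT day 0 replicate 1 and 0.17 without Hira-null day 0 replicate 2, and at day 15 it was -0.031 without WT day 15 replicate 2. The Pax6 change in the genotype difference was also -0.29 with a pseudocount of 0.1. The cause was not tested. The Prom1 call at day 0 was also lost with no filter (adjusted p = 0.0800), with median-of-ratios scaling (0.0517) and in the day 0 libraries alone (0.201), and Slc1a3 at day 0 was called with each library scaled to its own total (0.0455), all by limma. Scaling to the library's own fragment total was added after the data were seen. It moved the median of all genes from 0.03 to 0.14 for the days in WT. At day 15, the lower cardiomyocyte genes numbered 3 with a pseudocount of 0.1 or no filter, and a filter on mean FPKM gave 3 lower skeletal muscle genes and 2 higher and 2 lower astrocyte and oligodendrocyte genes. With a replicate block the counts were 4, 7, 9, 9 and 5, as without it. Deviations of libraries with the same number correlated from -0.10 to 0.05, so no shared deviation by number was seen. This cannot tell whether samples of the same number were prepared together. With 2 libraries a group and few or no fragments, small differences of Pax6, Hes5 and Fabp7 between genotypes at day 0 could have been missed.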

Other observations

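Genes of cell division and of pluripotency were not described above. Of 8 mitosis genes, 4 were higher and 1 lower in Hira-null at day 0, whereas 4 were lower and none higher in the libraries labelled Hira-null at day 15 (median log2 difference -0.24). Over all genes 20.8% were called higher and 19.4% lower at day 0, and 18.6% higher and 18.8% lower at day 15. Top2a, the topoisomerase that untangles chromosomes, went from 158 ± 10.2 FPKM in WT at day 15 to 93.9 ± 1.62 FPKM (n = 2; log2 difference -0.74, adjusted p = 1.02e-04, limma). Of 12 pluripotency genes, 5 were higher and 5 lower at day 15, and 3 were higher without WT day 15 replicate 1. Dppa5a, the highest of them by mean over the 8 libraries, went from 186 ± 13.7 to 287 ± 14.8 FPKM (0.62, adjusted p = 0.00145, limma). Dppa5a was also higher in Hira-null at day 0, at 2355 ± 4.11 FPKM against 1032 ± 140.4 FPKM in WT (1.2, adjusted p = 5.17e-05, limma). From day 0 to day 15, 11 of the 12 fell in WT and 12 fell in the cultures labelled Hira-null, where 33.4% and 36.4% of all genes fell.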
